A study of Mus musculus with 8 samples.

Results

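The 37 genes described here copy the DNA of a dividing cell or commit it to S phase. They were taken by symbol from 55335 genes in mouse prostate epithelium and cover helicase subunits, loading and firing factors, polymerases with their clamp, nucleotide supply, chromatin copying and G1/S regulators. Their levels were measured by RNA sequencing in 8 libraries, 2 in each of 4 groups. All mice shared a prostate genotype written here as PP. In PPK mice the genotype label adds Kmt2cPC-/-, a loss of the histone methyltransferase gene Kmt2c. Each genotype was profiled as sham at 3.5 months and after ADT, the usual abbreviation of androgen deprivation therapy, at 6.5 months. The comparisons ask how the loss of Kmt2c and ADT changed the epithelium. No group lacks the PP genotype, so it is common to all values, and the labels name neither the promoter behind the deletions nor the way ADT was done. Treatment and age changed together and cannot be told apart. The libraries carry the letters A and B, which the labels do not tie to separate animals, so p-values measure the spread between libraries, which may be technical.

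Values are FPKM, fragment numbers divided by gene length and by library size, with both libraries of a group printed in the order A and B. Steps in the low values of genes with 1 annotated transcript put the depth at an estimated 17600000 to 25100000 fragments per library, and summed FPKM ran from 284015 to 333977. Orc1, the lowest of the genes, then rests on about 7 to 25 fragments per library and Rrm1 on about 411 to 1458. Such numbers use the merged length of all annotated exons of a gene. Where the authors used a shorter length, they are too high. Kmt2c itself stood at 13.3 and 13.9 FPKM in PP sham, 8.67 and 8.15 in PPK sham, 10.3 and 9.33 in PP ADT and 6.60 and 6.36 in PPK ADT. It was lower in PPK than in PP in both conditions but not absent, and the deleted stretch is not named in the labels. The cells were sorted as EpCAM+, CD24A+ and CD49F-low. In PPK ADT Epcam stood at 310 and 315 FPKM and Cd24a at 322 and 316. All 8 genes of a luminal marker list, Epcam and Cd24a among them, were lower there than in PPK sham (limma adjusted p under 0.05). This held for 30.7% of all tested genes. Summed FPKM of 8 luminal markers lay at 1872 to 1897 in PPK ADT and 4923 to 5910 elsewhere, while the sum of 6 basal markers lay at 5793 to 5862 there and 869 to 1368 elsewhere. In PPK ADT the basal sum thus exceeded the luminal sum, and in the other groups it was the reverse. Single basal genes did not all follow their sum. With ADT in PPK mice 5 of the 6 rose and 1 fell, against 31.9% and 30.7% of all tested genes. In sham 3 were higher and 2 lower in PPK, against 13.7% and 14.9%. In bulk RNA, fewer cells of a type and less RNA per cell cannot be told apart.

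DNA replication begins when the origin recognition complex, Cdc6 and Cdt1 load the MCM2-7 helicase on origins in G1 phase. Cdc45 and the GINS complex then switch the helicase on, primase and polymerase alpha start each strand, and polymerases delta and epsilon extend it on the Pcna ring that the RFC complex loads. Ribonucleotide reductase supplies the deoxynucleotides. Cyclin E drives the step from G1 into S phase, and E2F factors, held back by the Rb family, are known to switch on many of these genes just before it.

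Promoter windows were read from RefSeq (build GRCm38.p6), each spanning 250 bases before to 50 after a gene's start, 300 in all. Of the 37 genes 30 had at least 1 window and 7 had none, and the 30 had 35 windows. The letters TTTCCCGC, TTTCGCGC, TTTGCCGC and TTTGGCGC, forms of the E2F site, were searched on both strands, with overlapping matches counted separately. They stood in 13 of the 35 windows (37.1%) and in 744 of all 32851 windows (2.26%). The share was 25.5% of 47 windows of other replication genes and 4.55% of 22 windows of G2 and mitosis genes. The windows were not matched for base composition, and its part in these shares was not tested. A match is a description of letters and not a bound site. The windows of 4 genes that hold the letters are shown with each match in capitals, 5′ to 3′ on the gene's strand. Mcm5 and Mcm7 had the largest genotype differences of the helicase genes after ADT, and Mcm6 and Pold1 are replication genes whose genotype difference after ADT did not pass. Rrm2, the gene with the widest change, follows with no such letters in its window. These 5 were chosen after their values were seen.
Mcm5 (chr8:75109259-75109558, plus strand): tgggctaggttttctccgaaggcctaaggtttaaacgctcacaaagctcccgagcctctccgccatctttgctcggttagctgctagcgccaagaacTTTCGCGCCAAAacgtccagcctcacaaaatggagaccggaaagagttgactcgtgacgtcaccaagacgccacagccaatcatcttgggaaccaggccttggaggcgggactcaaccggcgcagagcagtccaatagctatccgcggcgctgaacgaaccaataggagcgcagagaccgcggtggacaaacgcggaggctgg
Mcm7 (chr5:138171834-138172133, minus strand): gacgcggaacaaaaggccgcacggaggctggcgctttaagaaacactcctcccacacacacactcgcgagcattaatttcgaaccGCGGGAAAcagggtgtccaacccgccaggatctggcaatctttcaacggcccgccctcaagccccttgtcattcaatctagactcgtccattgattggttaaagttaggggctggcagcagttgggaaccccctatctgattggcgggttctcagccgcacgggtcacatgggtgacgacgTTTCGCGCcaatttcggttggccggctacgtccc
Mcm6 (chr1:128359656-128359955, minus strand): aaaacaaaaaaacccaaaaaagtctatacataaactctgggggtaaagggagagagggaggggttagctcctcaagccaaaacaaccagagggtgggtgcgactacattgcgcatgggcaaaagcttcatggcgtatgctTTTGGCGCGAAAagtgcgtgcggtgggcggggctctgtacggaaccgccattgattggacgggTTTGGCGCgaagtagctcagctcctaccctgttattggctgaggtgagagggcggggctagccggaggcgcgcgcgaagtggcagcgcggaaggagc
Pold1 (chr7:44548766-44549065, minus strand): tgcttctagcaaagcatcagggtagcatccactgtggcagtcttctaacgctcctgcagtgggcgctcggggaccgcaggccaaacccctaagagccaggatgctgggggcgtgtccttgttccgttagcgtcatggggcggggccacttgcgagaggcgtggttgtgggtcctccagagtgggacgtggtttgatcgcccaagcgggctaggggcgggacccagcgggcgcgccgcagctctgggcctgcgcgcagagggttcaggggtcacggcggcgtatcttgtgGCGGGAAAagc
Rrm2 (chr12:24708004-24708303, plus strand): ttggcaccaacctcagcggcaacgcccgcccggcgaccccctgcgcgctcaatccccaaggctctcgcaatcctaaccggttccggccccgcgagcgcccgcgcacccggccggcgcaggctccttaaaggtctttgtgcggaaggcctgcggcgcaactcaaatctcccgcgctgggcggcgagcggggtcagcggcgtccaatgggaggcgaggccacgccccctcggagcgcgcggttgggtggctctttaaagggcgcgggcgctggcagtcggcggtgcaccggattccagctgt
In Mcm5, TTTCGCGC and the reverse-strand form GCGCCAAA overlap, and Mcm6 holds 3 matches, of which the first pair overlaps. A second Mcm7 window holds none, and both Mcm7 windows lie inside the annotated span of the gene. The letters were thus present both in windows of genes that were higher in PPK after ADT and in windows of genes that did not pass.

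The CCAAT box, searched as CCAAT on both strands, stood in 57.1% of the windows of the 37 genes and in 37.4% of all windows. The CHR element, searched as TTTGAA, is known from promoters of mitotic genes. It stood in 11.4% of the windows of the 37 genes, 17.9% of all windows and 72.7% of the windows of G2 and mitosis genes.

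**Figure D1:**
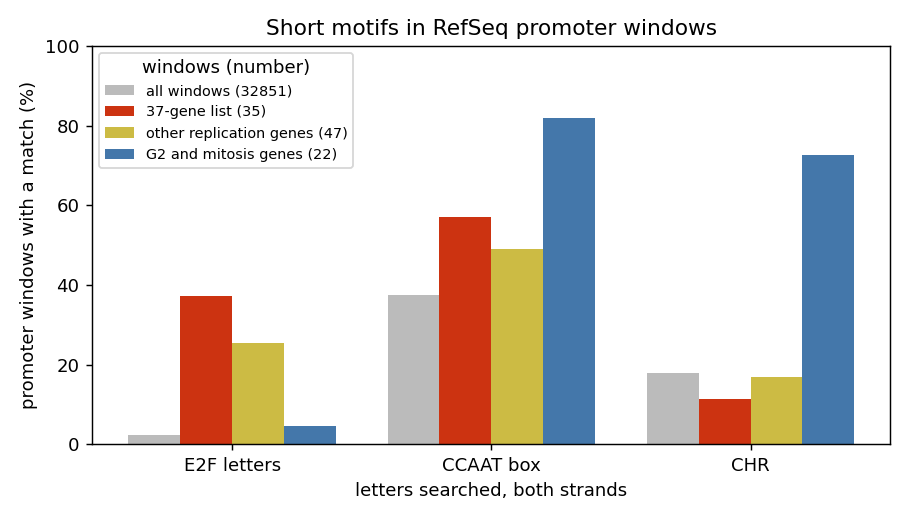
Bars give the percent of RefSeq promoter windows with at least 1 match to each set of letters on either strand, for all windows, the 37-gene list and the other replication and G2 and mitosis lists, with the number of windows in the legend. The E2F letters stood in 37.1% of the windows of the 37-gene list against 2.26% of all windows, and the CHR letters in 72.7% of those of the mitotic list.

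The replication genes stood highest in PPK mice after ADT. On average over 2 libraries, 32 of the 37 genes were highest in PPK ADT, 21 were lowest in PP ADT and 12 were lowest in PP sham. The shares of all genes with such group means were not counted, so these counts only describe the list. Both PPK ADT libraries stood above the other 6 libraries for 26 of the 37 genes, and among the 31 that were tested for 25, where 29.6% of all tested genes did so. The median level of the 37 genes was 1.70 and 2.02 FPKM in PP sham, 2.29 and 1.997 in PPK sham, 1.67 and 1.86 in PP ADT and 3.69 and 3.48 in PPK ADT. None of the genes was at 0 in any library. A gene was tested when at least 2 libraries reached 1 FPKM, which left out 6 (Orc1, Cdc6, Mcm10, Gins3, Pole and E2f1). Cdc45 and Ccne2 passed this filter only through the PPK ADT libraries, so the counts below describe the tested genes. Beside the main count of each comparison stands the count over all 37 genes without a filter. Counts by role are of tested genes only.

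**Figure D2:**
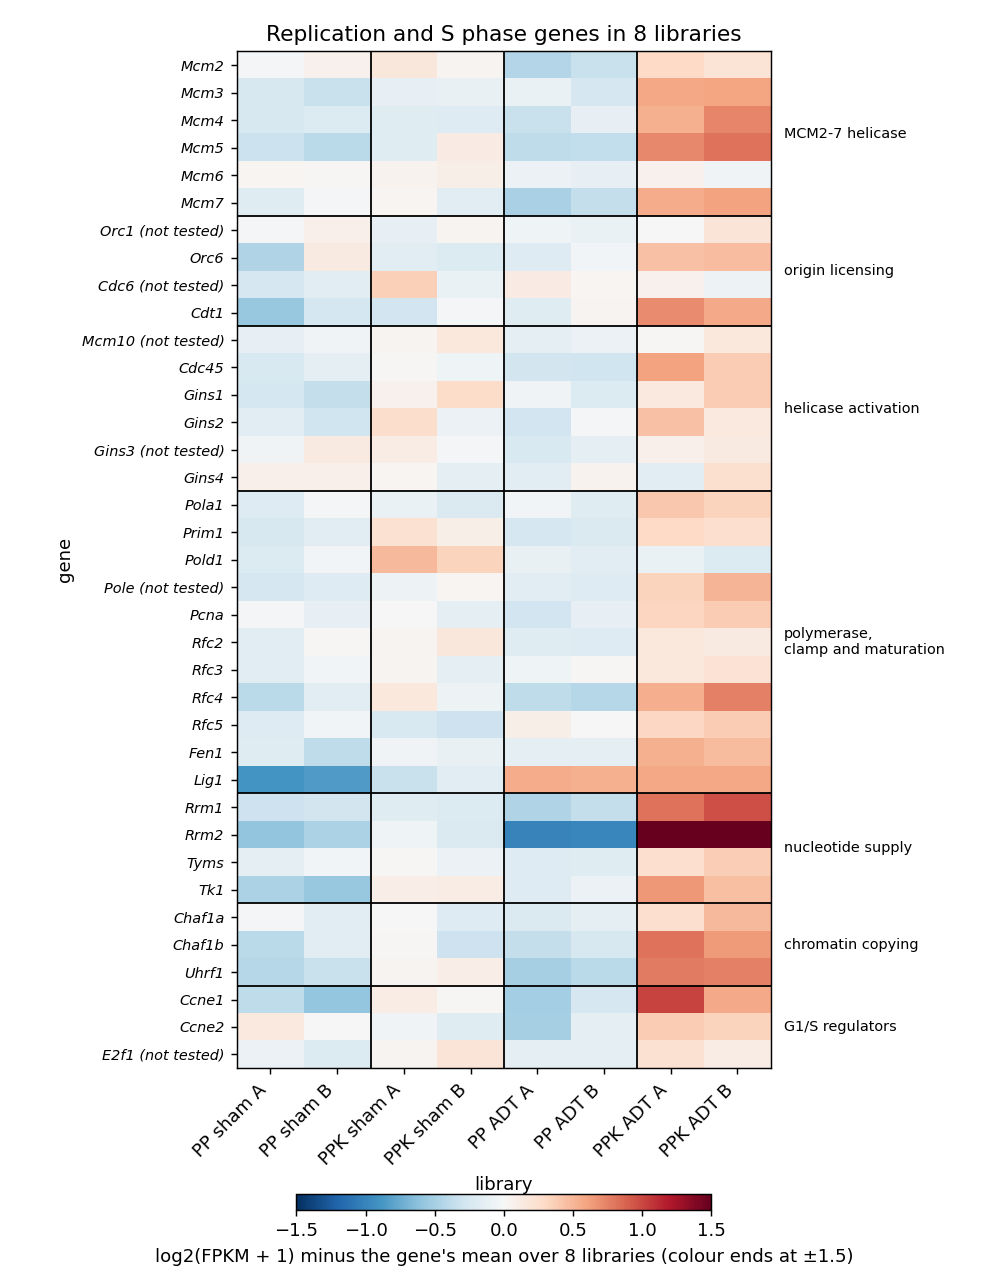
Rows are the 37 genes by role and columns the 8 libraries, and colour gives log2(FPKM + 1) minus the gene's mean over all libraries. Red in both PPK ADT columns marks most rows, with Mcm6, Cdc6, Gins4 and Pold1 among the exceptions, Lig1 is red in both ADT groups, and Rrm2 has the strongest contrast between PP ADT and PPK ADT.

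Between the genotypes, most of the replication genes were higher in PPK than in PP after ADT. By ratio of mean FPKM, Rrm2 (10.0), Ccne1 (4.47), Ccne2 and Cdc45 (3.41 each) and Rrm1 (3.15) were the furthest apart, and on log2(FPKM + 1) Rrm2, Rrm1, Uhrf1 and Ccne1. After ADT 25 of the 31 tested genes were higher in PPK, 0 were lower and 6 did not pass (limma, Benjamini-Hochberg adjusted p under 0.05 over 14000 genes). Over all 37 genes without a filter, 24 were higher and 0 lower, and 0 were lower at an unadjusted limma p under 0.05 as well. Without a filter 31172 genes of the series entered the fit. Of these 5420 were higher and 3876 lower, or 6886 and 4867 at an unadjusted limma p under 0.05. Of all tested genes 32.5% were higher and 27.1% lower. The median log2 fold change of FPKM + 1 was 0.64 for the replication genes and 0.05 for all tested genes. Both PPK ADT libraries stood above both PP ADT libraries for 34 of the 37 genes, and for 29 of the 31 tested, against 43.3% of all tested genes. The 6 that did not pass were Pold1, Lig1, Gins4, Mcm6, Rfc3 and Gins2, at log2 fold changes from -0.01 (Pold1) to 0.45 (Gins2).

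In sham mice fewer of the genes passed: 7 of the 31 tested genes were higher in PPK, 0 were lower and 24 did not pass. Without a filter 5 of the 37 were higher and 0 lower, or 10 and 0 at an unadjusted limma p under 0.05. Of the 31172 genes without a filter 1807 were higher and 1902 lower, or 3513 and 3736 unadjusted. Among all tested genes 13.7% were higher and 14.9% lower, and the medians were 0.16 for the replication genes and -0.02 for all. The 7 were Tk1 and Lig1 (0.62 each), Pold1 (0.53), Gins1 (0.48), Uhrf1 (0.46), Rrm2 (0.39) and Prim1 (0.37). The count fell to 4 without PP sham replicate A.

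ADT with age changed few of these genes in PP mice. There 2 of the 31 rose (Lig1 and Tk1), 3 fell (Rrm2, Mcm2 and Mcm7) and 26 did not pass. Without a filter 1 of the 37 rose and 2 fell, where 2638 of 31172 genes rose and 3363 fell. Of all tested genes 19.1% rose and 25.1% fell, and the medians were -0.02 and -0.07. The 2 that rose became 1 without PP sham replicate A, PP sham replicate B or PP ADT replicate B, and the 3 that fell became 1 without PP sham replicate B.

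In PPK mice ADT with age raised 22 of the 31 tested genes and lowered 1 (Pold1), and 8 did not pass. Without a filter 5253 of 31172 genes rose and 4420 fell. Of the 37 replication genes 21 rose and 1 fell without a filter. Of those that rose, Chaf1a and Tyms did not pass without PPK sham replicate B or PPK ADT replicate B, Ccne1 without PPK sham replicate B, and Ccne2 without PPK sham replicate B or either PPK ADT library, with pseudocount 0.1 or with no filter. Of all tested genes 31.9% rose and 30.7% fell, and the medians were 0.53 for the replication genes and 0.00 for all. The genotype difference itself was larger after ADT than in sham for 18 of the 31 and smaller for 2 (Lig1 and Pold1), with 11 not passing. Without a filter these were 15 and 2 of the 37, where 4449 of 31172 genes had a more positive and 3234 a more negative difference. Over all tested genes 30.0% had a more positive and 22.8% a more negative difference, with medians of 0.54 and 0.09. The 2 became 1 without PP sham replicate A, PP ADT replicate A or PPK ADT replicate B, the setting in which Pold1 no longer passed. The comparisons share libraries, so their counts are not independent of each other.

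Markers of other cells moved with these groups. Summed FPKM of 7 squamous markers was 2191 to 2219 in PPK ADT and 317 to 566 elsewhere. The sum of 8 fibroblast genes was 30.8 to 31.5 in PPK ADT, 18.3 to 18.7 in PPK sham and 4.72 to 6.34 in both PP groups, with Pdgfra and Pdgfrb under 1 FPKM throughout. Smooth muscle genes (5) summed to 11.8 to 11.9 in PPK ADT and 1.77 to 5.94 elsewhere, with Myh11, Cnn1 and Des under 1 FPKM throughout. Macrophage genes (12) summed to 71.2 to 72.2 in PP sham, 137 to 138 in PPK sham, 138 to 149 in PP ADT and 61.2 to 61.9 in PPK ADT, with Adgre1, Csf1r and Fcgr1 under 1 FPKM throughout. Single macrophage genes went both ways. Of 9 tested, 2 were higher and 6 lower in PPK after ADT, against 32.5% and 27.1% of all tested genes. In sham 7 were higher and 2 lower, against 13.7% and 14.9%. Endothelial genes (7) summed to 0.548 to 4.62. All 11 lymphocyte genes stood under 1 FPKM in every library, and the 6 neutrophil genes summed to at most 1.79. The part of basal, squamous, fibroblast, smooth muscle and macrophage RNA in the replication gene differences was not tested.

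**Figure D3:**
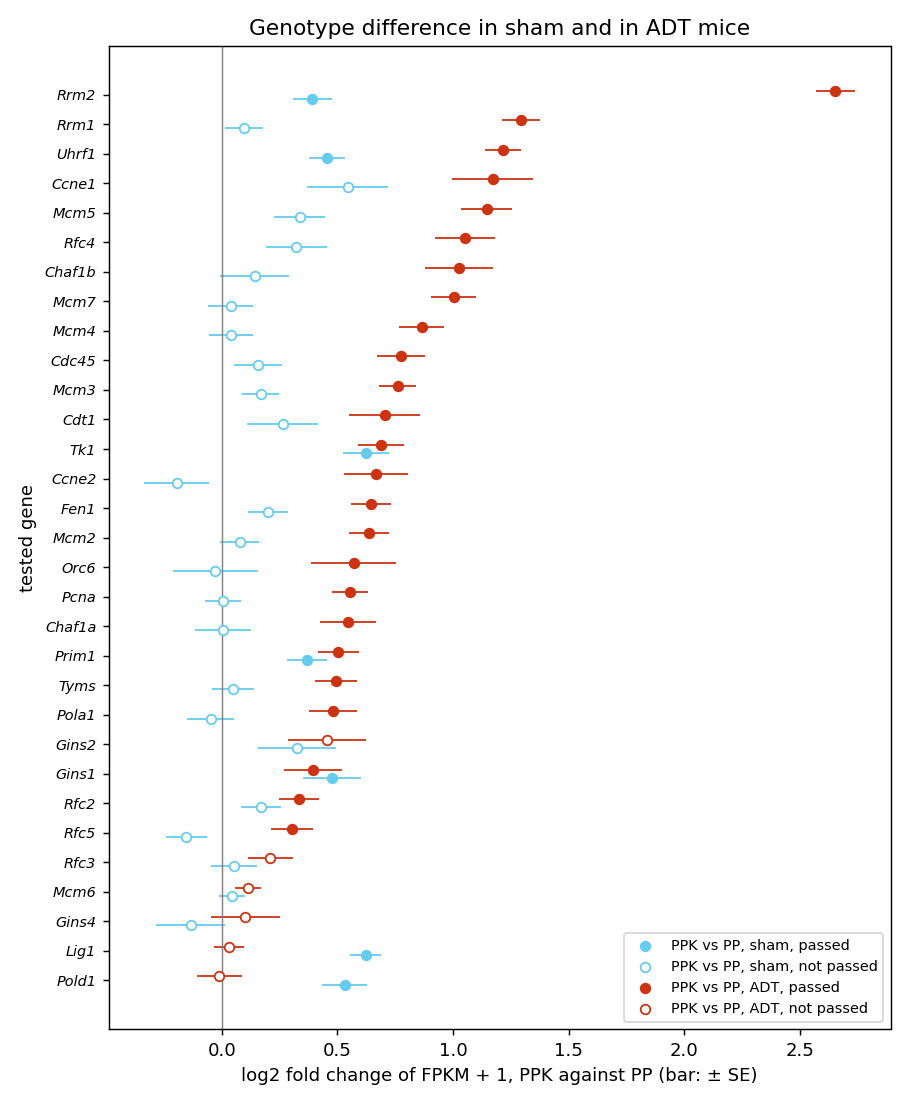
Points give the log2 fold change of FPKM + 1, PPK against PP, for the 31 tested genes in sham mice (light blue) and ADT mice (red), with bars of ± 1 SE, filled where the limma adjusted p was under 0.05. Rrm2 stands far to the right after ADT at 2.65, and Lig1 and Pold1 are the tested genes that passed in sham mice and lay near 0 after ADT.

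Among the 6 helicase subunits, 5 were higher in PPK than in PP after ADT and Mcm6 did not pass. Mcm5 (ENSMUSG00000005410, chr8:75109569-75128439 on GRCm38) stood at 2.73 and 2.50 FPKM in PP sham, 3.11 and 4.06 in PPK sham, 2.57 and 2.60 in PP ADT and 6.67 and 7.20 in PPK ADT. The PPK ADT pair did not overlap any other library. It was 1.15 ± 0.11 (SE) higher in PPK than in PP after ADT on the log2 scale, or 2.69-fold by mean FPKM (limma adjusted p = 0.000156). Mcm7 was at 4.65 and 5.33 FPKM in PP sham, 5.54 and 4.76 in PPK sham, 3.59 and 4.02 in PP ADT and 8.46 and 8.78 in PPK ADT. It fell with ADT in PP mice by 0.32 ± 0.10 (limma adjusted p = 0.0363) and rose in PPK mice by 0.65 ± 0.10 (limma adjusted p = 0.00114). The fall in PP mice did not pass without PP sham replicate B (limma adjusted p = 0.169), either PP ADT library or either PPK ADT library. It also did not pass with median-of-ratios scaling (-0.25, limma adjusted p = 0.0790), quantile normalization (-0.24, limma adjusted p = 0.0888), no filter, the replicate block or only the groups compared. The genotype difference of Mcm7 was 0.96 ± 0.14 larger after ADT than in sham (limma adjusted p = 0.00125).

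Mcm4 was at 5.97 and 6.19 FPKM in PP sham, 6.30 and 6.25 in PPK sham, 5.54 and 6.60 in PP ADT and 11.0 and 12.8 in PPK ADT. The PPK ADT pair lay above every other library, 0.86 ± 0.10 above PP ADT (limma adjusted p = 0.000321). Mcm2 was at 3.70 and 3.97 FPKM in PP sham, 4.34 and 3.87 in PPK sham, 2.50 and 2.77 in PP ADT and 4.85 and 4.46 in PPK ADT. The PP ADT pair lay below all others, 0.41 ± 0.09 below PP sham (limma adjusted p = 0.00872), and PPK ADT and PPK sham differed by 0.15 ± 0.09, which did not pass (limma adjusted p = 0.176). Without PP sham replicate B the drop had an adjusted p of 0.0520. Mcm3 was at 2.75 to 3.39 FPKM in the other 6 libraries and at 6.04 and 6.08 in PPK ADT.

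Mcm6 (ENSMUSG00000026355, chr1:128331590-128359664) had the highest mean level of the subunits and passed in none of the 5 comparisons. It stood at 10.02 and 9.92 FPKM in PP sham, 10.2 and 10.4 in PPK sham, 9.11 and 8.89 in PP ADT and 10.3 and 9.37 in PPK ADT. The 6 subunits form a ring, and their summed FPKM was 30.1 and 30.7 in PP sham, 32.8 and 32.8 in PPK sham, 26.7 and 27.8 in PP ADT and 47.3 and 48.7 in PPK ADT. The highest subunit had 3.08 to 3.96 times the level of the lowest in the other 6 libraries and 2.27 and 2.86 times in PPK ADT. The highest subunit was Mcm6 in the other 6 libraries and Mcm4 in PPK ADT (11.0 and 12.8 FPKM). The smaller ratio in PPK ADT thus rests on the nearly level Mcm6, and the remaining subunits did not come closer to each other.

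**Figure D4:**
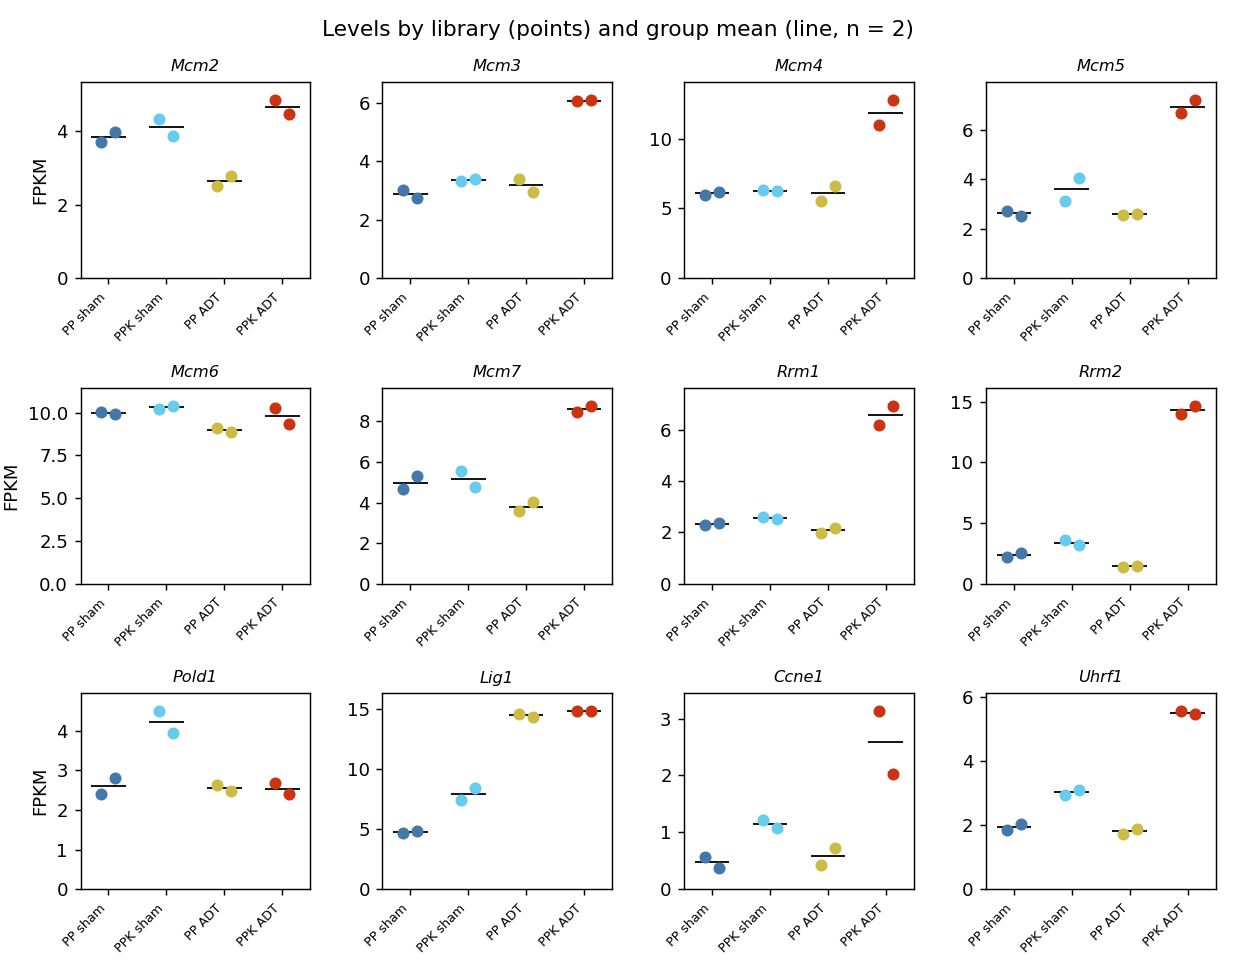
Each panel gives FPKM of 1 gene by group on an axis that starts at 0, with points for the 2 libraries and a line at their mean. The PPK ADT points stand above all others for Mcm3, Mcm4, Mcm5, Mcm7, Rrm1, Rrm2, Ccne1 and Uhrf1, Mcm6 is nearly level, Pold1 is highest in PPK sham and Lig1 is high in both ADT groups.

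Origin licensing was represented by 2 tested genes, Cdt1 and Orc6, and both were higher in PPK than in PP after ADT. Cdt1, which brings MCM2-7 to the origin, stood at 1.04 and 1.52 FPKM in PP sham, 1.47 and 1.997 in PPK sham, 1.67 and 2.12 in PP ADT and 3.94 and 3.48 in PPK ADT. Both PPK ADT libraries were above all others, 0.71 ± 0.15 above PP ADT (limma adjusted p = 0.00725). Orc6, a subunit of the origin recognition complex, was at 1.70 and 3.08 FPKM in PP sham, 2.29 and 2.22 in PPK sham, 2.24 and 2.61 in PP ADT and 4.04 and 4.12 in PPK ADT. Its libraries of PP sham differed widely, and the 0.57 ± 0.18 between the genotypes after ADT (limma adjusted p = 0.0345) did not pass without either PPK sham library, either PP ADT library or either PPK ADT library, with adjusted p up to 0.144, nor with no filter (0.0816) or median-of-ratios scaling (0.0543). Its rise with ADT in PPK mice, 0.64 ± 0.18 (limma adjusted p = 0.0214), did not pass without either PPK sham or either PPK ADT library or with no filter. Orc1 and Cdc6 stayed at 0.106 to 1.05 FPKM and were not tested. Cdc6, which loads the helicase together with Cdt1, was higher in both PPK sham libraries (1.05 and 0.493 FPKM) than in PP sham (0.339 and 0.434), and its PP ADT and PPK ADT libraries overlapped.

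Of the 4 tested helicase activation genes Cdc45 and Gins1 were higher in PPK after ADT, and Gins2 and Gins4 did not pass. Cdc45, the factor that joins GINS on the helicase, stood at 0.484 and 0.581 FPKM in PP sham, 0.751 and 0.664 in PPK sham, 0.432 and 0.414 in PP ADT and 1.63 and 1.26 in PPK ADT. Only the PPK ADT libraries reached 1 FPKM, and the mean ratio to PP ADT was 3.41 (0.77 ± 0.10 on the log2 scale of FPKM + 1, limma adjusted p = 0.000762). Gins1 was at 1.00 and 0.876 FPKM in PP sham, 1.51 and 1.90 in PPK sham, 1.32 and 1.07 in PP ADT and 1.65 and 2.12 in PPK ADT. It was higher in PPK in both conditions, by 0.48 ± 0.13 in sham (limma adjusted p = 0.0314) and 0.39 ± 0.13 after ADT (limma adjusted p = 0.0332), and the difference between these was not significant (limma adjusted p = 0.713). The sham call did not pass without PP sham replicate A, PP sham replicate B or PPK sham replicate B, nor the ADT call without either PP sham library, either PP ADT library or PPK ADT replicate B. With no filter, the replicate block or only the groups compared neither passed, and under both scalings the ADT call did not (limma adjusted p = 0.0593 and 0.0747). Gins4 had the highest mean level of the group, at 6.28 and 6.27 FPKM in PP sham, 6.05 and 5.22 in PPK sham, 5.10 and 6.12 in PP ADT and 5.14 and 7.15 in PPK ADT, and passed in no comparison. Mcm10 and Gins3, not tested, lay at 0.292 to 0.678 FPKM.

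Of the 10 tested genes for polymerases, clamp and strand maturation, 7 were higher in PPK after ADT. Rfc4, a subunit of the clamp loader, stood at 1.72 and 2.22 FPKM in PP sham, 3.01 and 2.41 in PPK sham, 1.75 and 1.68 in PP ADT and 4.24 and 5.06 in PPK ADT. The PPK ADT pair was above every other library, 1.05 ± 0.13 above PP ADT (limma adjusted p = 0.000529). Of its partners in the loader, Rfc2 was 0.33 ± 0.09 and Rfc5 0.30 ± 0.09 higher in PPK after ADT, and Rfc3 differed by 0.21 ± 0.10, which did not pass (limma adjusted p = 0.111). Neither Rfc2 nor Rfc5 passed when PP ADT replicate B or either PPK ADT library was left out, nor Rfc2 without PP ADT replicate A, nor Rfc5 with median-of-ratios scaling (limma adjusted p = 0.0680) or quantile normalization (limma adjusted p = 0.0524). Fen1, the nuclease that trims Okazaki fragments, was at 2.91 and 2.41 FPKM in PP sham, 3.28 and 3.11 in PPK sham, 3.03 and 2.99 in PP ADT and 5.41 and 5.15 in PPK ADT. It too separated PPK ADT from the rest, by 0.65 ± 0.09 from PP ADT (limma adjusted p = 0.000768). Pola1, of the polymerase that starts strands, was 0.48 ± 0.10 and its primase partner Prim1 0.50 ± 0.09 higher in PPK after ADT. Prim1 was also higher in sham (0.37 ± 0.09), a call that did not pass without either PP sham library or PPK sham replicate A, with no filter or with only the groups compared.

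Pcna, the sliding clamp, had the highest level of the 37 genes. It stood at 20.6 and 19.1 FPKM in PP sham, 21.04 and 18.9 in PPK sham, 16.9 and 19.1 in PP ADT and 26.4 and 27.5 in PPK ADT. PPK ADT exceeded PP ADT by 0.56 ± 0.08 (limma adjusted p = 0.000959), with no overlap. A processed copy, Pcna-ps2, is listed at 5.32 to 10.0 FPKM in the other 6 libraries and at 15.4 and 16.0 in PPK ADT, so reads may have been split between both and the Pcna level is uncertain.

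Lig1 and Pold1 departed from the shared pattern. Lig1 (ENSMUSG00000056394, chr7:13277283-13311433), the ligase that joins Okazaki fragments, stood at 4.70 and 4.86 FPKM in PP sham, 7.40 and 8.41 in PPK sham, 14.6 and 14.3 in PP ADT and 14.8 and 14.8 in PPK ADT. It was higher in PPK sham than in PP sham by 0.62 ± 0.07 (limma adjusted p = 0.000792), and both ADT groups were higher still. ADT with age raised it by 1.42 ± 0.07 in PP mice (3.03-fold, limma adjusted p = 9.66e-06) and by 0.83 ± 0.07 in PPK mice (1.87-fold, limma adjusted p = 5.38e-05). After ADT the genotypes differed by 0.03 ± 0.07, which did not pass (limma adjusted p = 0.698). The genotype difference was thus smaller after ADT than in sham, by -0.59 ± 0.09 (limma adjusted p = 0.00204). Pold1 (ENSMUSG00000038644, chr7:44532746-44548849), the catalytic subunit of polymerase delta, was at 2.40 and 2.81 FPKM in PP sham, 4.49 and 3.94 in PPK sham, 2.63 and 2.49 in PP ADT and 2.67 and 2.40 in PPK ADT. Its highest libraries were those of PPK sham, 0.53 ± 0.10 above PP sham (limma adjusted p = 0.00801), and fell by 0.56 ± 0.10 with ADT in PPK mice (limma adjusted p = 0.00245). Pole, the catalytic subunit of polymerase epsilon, was not tested and lay at 0.333 to 0.610 FPKM in the other 6 libraries and at 0.997 and 1.26 in PPK ADT.

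The nucleotide supply genes held Rrm2, the gene with the widest genotype difference of the list after ADT. All 4 were higher in PPK after ADT, and all 4 rose with ADT in PPK mice, though Tyms did not pass there without PPK sham replicate B or PPK ADT replicate B. Rrm2 (ENSMUSG00000020649, chr12:24708241-24714146), the small subunit of ribonucleotide reductase, stood at 2.20 and 2.49 FPKM in PP sham, 3.63 and 3.16 in PPK sham, 1.41 and 1.45 in PP ADT and 14.0 and 14.7 in PPK ADT. No group overlapped another. After ADT the PPK level was 10.0 times the PP level (2.65 ± 0.08, limma adjusted p = 8.97e-07). In sham mice the ratio was 1.45 (0.39 ± 0.08, limma adjusted p = 0.0153), a call that did not pass without PP sham replicate A (limma adjusted p = 0.0822) or PPK sham replicate A (limma adjusted p = 0.0733), or with only the groups compared (limma adjusted p = 0.0712). ADT with age lowered Rrm2 by 0.46 ± 0.08 in PP mice (limma adjusted p = 0.00528) and raised it by 1.80 ± 0.08 in PPK mice (limma adjusted p = 4.37e-06). The genotype difference grew by 2.26 ± 0.12 (limma adjusted p = 1.31e-05).

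Rrm1, the large subunit, was at 2.29 and 2.38 FPKM in PP sham, 2.58 and 2.54 in PPK sham, 1.98 and 2.18 in PP ADT and 6.18 and 6.94 in PPK ADT. Its PPK ADT pair stood apart, 1.29 ± 0.08 above PP ADT (3.15-fold, limma adjusted p = 2.01e-05), and the sham groups did not differ at this threshold (0.10 ± 0.08, limma adjusted p = 0.440). The 2 subunits did not move in step. Rrm2 over Rrm1 was 0.961 and 1.05 in PP sham, 1.40 and 1.24 in PPK sham, 0.714 and 0.665 in PP ADT and 2.26 and 2.11 in PPK ADT. Rrm2b, the p53-induced alternative small subunit and no member of the list, was named after its values were seen. It stood at 3.59 and 3.27 FPKM in PP sham, 2.87 and 2.82 in PPK sham, 2.45 and 2.54 in PP ADT and 1.92 and 2.31 in PPK ADT. Rrm2b exceeded Rrm2 in both PP groups (1.31 to 1.75 times) and was 0.137 and 0.157 times Rrm2 in PPK ADT.

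Tk1, which salvages thymidine, stood at 1.15 and 1.01 FPKM in PP sham, 2.19 and 2.22 in PPK sham, 1.61 and 1.81 in PP ADT and 3.69 and 3.07 in PPK ADT. It was higher in PPK in both conditions, 0.62 ± 0.10 in sham (limma adjusted p = 0.00465) and 0.69 ± 0.10 after ADT (limma adjusted p = 0.00108), and the difference of 0.07 ± 0.14 did not pass (limma adjusted p = 0.724). Its rise with ADT in PP mice, 0.38 ± 0.10 (limma adjusted p = 0.0219), did not pass without either PP sham library or PP ADT replicate B or with no filter (limma adjusted p = 0.0548). Tyms, which makes thymidylate, was at 0.844 to 1.12 FPKM in the other 6 libraries and at 1.51 and 1.71 in PPK ADT.

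All 3 chromatin copying genes were higher in PPK after ADT. Uhrf1, which brings the maintenance DNA methyltransferase to new DNA, stood at 1.83 and 2.02 FPKM in PP sham, 2.93 and 3.10 in PPK sham, 1.71 and 1.89 in PP ADT and 5.55 and 5.46 in PPK ADT. Its PPK libraries exceeded the PP libraries in both conditions, by 0.46 ± 0.08 in sham (limma adjusted p = 0.00596) and 1.22 ± 0.08 after ADT (limma adjusted p = 2.05e-05), and the difference grew by 0.76 ± 0.11 (limma adjusted p = 0.00139). Chaf1b, a subunit of the histone chaperone CAF-1, was at 1.29 and 1.71 FPKM in PP sham, 2.09 and 1.44 in PPK sham, 1.38 and 1.58 in PP ADT and 4.37 and 3.75 in PPK ADT. The sham groups overlapped and PPK ADT lay 1.03 ± 0.15 above PP ADT (limma adjusted p = 0.00108). Its partner Chaf1a, at 0.871 to 1.20 FPKM in the other 6 libraries, was at 1.61 and 2.04 in PPK ADT.

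Both E-type cyclins were higher in PPK after ADT. Ccne1 stood at 0.572 and 0.373 FPKM in PP sham, 1.22 and 1.07 in PPK sham, 0.433 and 0.720 in PP ADT and 3.13 and 2.03 in PPK ADT. The genotypes did not overlap in either condition. The log2 fold change of FPKM + 1 was 1.17 ± 0.17 after ADT (limma adjusted p = 0.00125). It was 0.54 ± 0.17 in sham, where it did not pass (limma adjusted p = 0.0618). Ccne2 was at 0.798 and 0.625 FPKM in PP sham, 0.563 and 0.427 in PPK sham, 0.149 and 0.478 in PP ADT and 1.11 and 1.04 in PPK ADT. In sham mice it lay on the other side, lower in both PPK libraries (-0.20 ± 0.14, limma adjusted p = 0.353), and after ADT it was 0.67 ± 0.14 higher in PPK (limma adjusted p = 0.00599). Only the PPK ADT libraries of Ccne2 reached 1 FPKM, so it passed the filter only through them. It rests on an estimated 10 to 73 fragments per library. E2f1 was at 0.505 to 1.03 FPKM and was not tested.

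The counts of further gene lists are read against all tested genes, of which 32.5% were higher and 27.1% lower in PPK after ADT, 13.7% and 14.9% in sham, 19.1% rose and 25.1% fell with ADT in PP and 31.9% and 30.7% in PPK. They include genes that passed the filter only through the PPK ADT libraries: 2 in the E2F list (E2f8 among them), 5 other replication genes (Dbf4 among them), 1 checkpoint gene (Chek1) and 2 mitotic genes.

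Of the other E2F factors, E2f4 and E2f3 were higher in PPK after ADT and E2f5 was lower. E2f4, mainly a repressor in quiescent cells, stood at 12.8 to 14.9 FPKM in the other 6 libraries and at 18.7 and 18.3 in PPK ADT (0.45 ± 0.05 above PP ADT, limma adjusted p = 0.000337). E2f3 was 0.60 ± 0.08 higher in PPK ADT and E2f5 lower (-0.51 ± 0.11). E2f8, itself an E2F target that acts as a repressor, was at 0.283 to 0.759 FPKM in the other 6 libraries and at 1.86 and 2.01 in PPK ADT. E2f6 did not pass (limma adjusted p = 0.981), and E2f2 and E2f7 were under the filter at 0.0321 to 1.58 FPKM. Tfdp1, the partner through which most E2F factors bind DNA, was 0.71 ± 0.08 higher, and Rb1, which restrains E2F, 0.28 ± 0.07 higher (limma adjusted p = 0.0151), while Rbl1 and Rbl2 did not pass. Of the 14 tested genes of this list of 17, 7 were higher in PPK after ADT and 1 was lower. In sham mice 0 passed by limma, with 2 higher at an unadjusted p under 0.05, and ADT raised 2 and lowered 1 in PP and raised 7 and lowered 2 in PPK.

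Cyclins, kinases and inhibitors of the G1/S step moved both ways. After ADT 7 of 14 were higher in PPK and 2 lower, and in sham 6 were higher and 1 lower. Cdk4, the partner of D-type cyclins, stood at 16.5 to 18.3 FPKM in the other 6 libraries and at 41.5 and 39.3 in PPK ADT (1.14 ± 0.05 above PP ADT, limma adjusted p = 5.6e-06). Ccnd2, a D-type cyclin, stood at 2.22 and 2.38 FPKM in PP sham, 5.02 and 5.30 in PPK sham, 7.80 and 7.004 in PP ADT and 17.9 and 19.1 in PPK ADT, so that no group overlapped another. Cdkn1a, which encodes the kinase inhibitor p21, was also highest in PPK ADT, at 108 and 111 FPKM against 46.6 to 64.4 elsewhere (0.76 ± 0.05 above PP ADT, limma adjusted p = 1.47e-05). Ccna2, the S phase cyclin, was at 1.99 and 1.53 FPKM in PP sham, 1.90 and 2.29 in PPK sham, 0.674 and 0.956 in PP ADT and 4.17 and 3.91 in PPK ADT. It fell in PP mice (-0.60 ± 0.13, limma adjusted p = 0.00975) and rose in PPK mice (0.71 ± 0.13, limma adjusted p = 0.00307) with ADT.

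In a list of 48 other replication genes, 39 were tested. After ADT 21 were higher in PPK, 3 lower and 15 did not pass, with a median of 0.37. In sham 1 was higher and 0 lower (7 and 1 at an unadjusted p under 0.05 by limma). Dnmt1, the maintenance methyltransferase that works with Uhrf1, was at 7.34 to 10.1 FPKM in the other 6 libraries and at 14.6 and 15.03 in PPK ADT, 0.89 ± 0.05 above PP ADT (limma adjusted p = 1.72e-05). Topbp1, which helps to fire origins, was 0.77 ± 0.08 higher. Dbf4, the activating subunit of the Cdc7 kinase, was at 0.732 to 1.23 FPKM in the other 6 libraries and at 2.23 and 2.01 in PPK ADT. Pold3, an accessory subunit of polymerase delta, moved the other way, from 8.35 to 9.55 FPKM in the other 6 libraries to 4.40 and 4.05 in PPK ADT (-0.85 ± 0.06, limma adjusted p = 4.14e-05). The remaining subunits of polymerase delta, looked up after these values were seen, were higher in PPK after ADT, Pold2 by 0.86 ± 0.10 (limma adjusted p = 0.000461) and Pold4 by 0.57 ± 0.15 (limma adjusted p = 0.0153). ADT with age raised 1 and lowered 3 of the 39 in PP mice, and raised 19 and lowered 4 in PPK mice. The 3 became 1 without PP sham replicate B or PP ADT replicate B.

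Of 10 replication checkpoint genes 8 were tested. After ADT Chek1 and Etaa1 were higher in PPK, Wee1 was lower and 5 did not pass. Wee1, the kinase that holds back Cdk1 and Cdk2, was at 37.1 to 42.5 FPKM in the other 6 libraries and at 14.7 and 13.8 in PPK ADT (-1.32 ± 0.04, limma adjusted p = 5.73e-07). Chek1, the kinase that signals stalled forks, was at 0.549 to 0.845 FPKM elsewhere and at 1.87 and 1.57 in PPK ADT, the only group through which it passed the filter. In sham 0 of the 8 passed by limma, with 1 lower at an unadjusted p under 0.05, and ADT lowered 2 in PP and raised 1 and lowered 1 in PPK.

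The G2 and mitosis genes, which act after S phase, differed between the genotypes after ADT as well: 21 of 22 tested genes of a list of 26 were higher in PPK and 0 lower, with a median of 1.38 against 0.64 for the replication genes. Mki67, the Ki-67 antigen of cycling cells, stood at 4.44 and 4.82 FPKM in PP sham, 5.92 and 5.94 in PPK sham, 2.65 and 2.69 in PP ADT and 10.5 and 10.5 in PPK ADT. After ADT the PPK libraries lay 1.65 ± 0.06 above the PP libraries (limma adjusted p = 1.8e-06). Cdc20, an activator of the anaphase-promoting complex, was 2.46 ± 0.13, Top2a, which untangles replicated DNA, 1.68 ± 0.07 and the spindle checkpoint kinase Bub1 1.40 ± 0.09 higher. In sham mice 1 of the 22 was higher and 1 lower. In PP mice ADT with age lowered 18 of the 22 (median -0.47) and raised 0, where 3 of the 31 tested replication genes fell (median -0.02). The 18 became 11 without PP sham replicate A, 9 without PP sham replicate B, 10 without PP ADT replicate A and 10 with no filter. In PPK mice 19 rose and 1 fell. The difference between the lists was not tested.

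**Figure D5:**
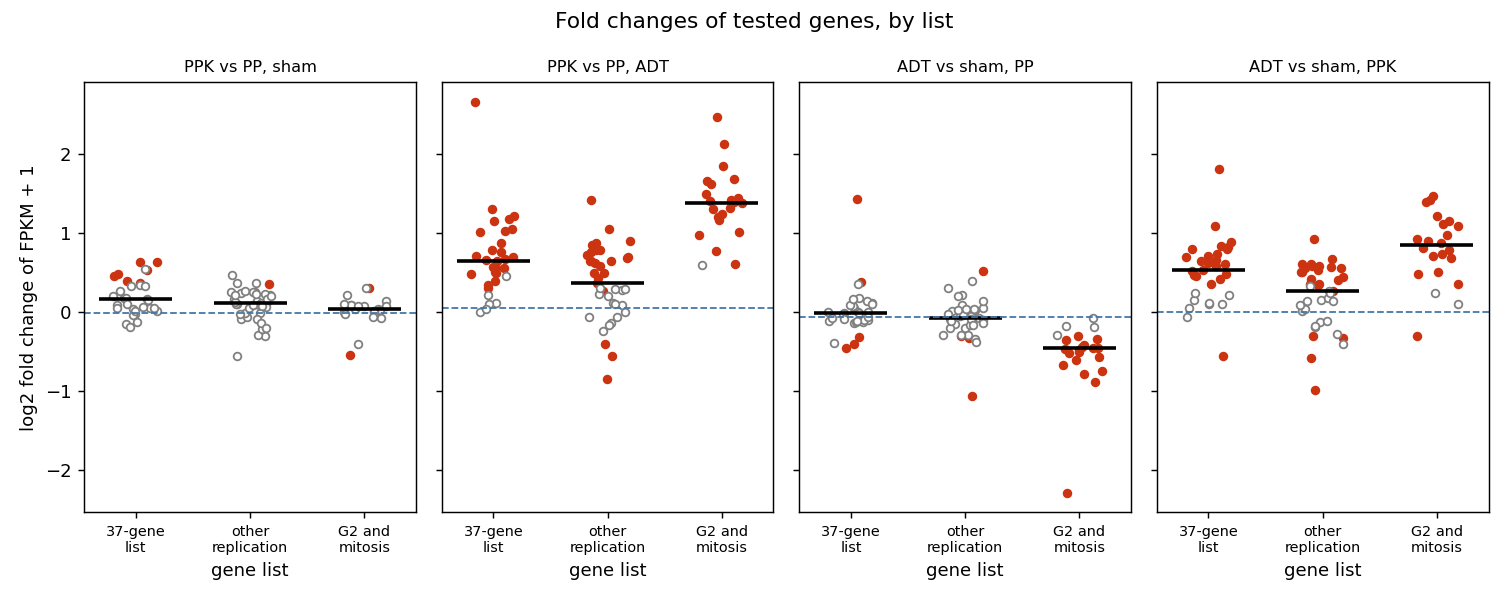
Each point is a tested gene of the 37-gene list (31), the other replication list (39) or the G2 and mitosis list (22), placed by its log2 fold change of FPKM + 1 in 4 comparisons and red where the limma adjusted p was under 0.05. Black lines are list medians and dashed lines the median of all 14000 tested genes, and the mitotic genes lie below 0 in PP mice with ADT, where the 37-gene list has a median of -0.02.

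Across the 8 libraries, most of the genes followed a common profile. The Pearson correlation of each gene's log2(FPKM + 1) with the mean of the other standardised genes was highest for Uhrf1 (0.991), Rrm2 (0.985) and Rfc4 (0.984). The lowest values were those of Pold1 (-0.03), Cdc6 (0.106), Gins4 (0.141), Mcm6 (0.241) and Lig1 (0.413). These values are descriptions over libraries that share their groups. Of 7084 tested genes outside the list with a mean of at least 5 FPKM, 175 had a correlation above 0.95 with the mean profile. The 5 highest were Larp1 (0.992), Ebna1bp2, Scpep1 and Sin3b (0.990 each) and Rps15a-ps7 (0.989), the last a processed pseudogene whose reads cannot be separated from its parent gene with certainty. Larp1 spanned 35.7 to 43.1 FPKM over the libraries, and Scpep1 spanned 2.10 to 22.03 FPKM. Likeness of profile thus covered both small and wide ranges.

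Reads of 11 of the 37 genes may be shared with a neighbour. Each overlaps a gene on the opposite strand with a mean above 0.5 FPKM, among them Rfc4 with Eif4a2 (39.7 FPKM), Mcm7 with Cops6 (18.9 FPKM), Orc6 with Vps35 (15.1 FPKM) and Rfc5 with Wsb2 (14.5 FPKM). The libraries were made with a strand-specific kit, and whether the counting used strand is not given in the sources used here.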

How the data were processed

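RNA of sorted mouse prostate epithelium was measured in 8 libraries made with a strand-specific TruSeq kit from Trizol-extracted total RNA, per the labels' protocols. The authors deposited 1 table of FPKM values per library. FastQC 0.11.2 and the build mm10 stand in the submitters' processing notes. Which aligner, quantifier and annotation were used is not given in the sources used here. Organoid experiments that the design text names were not analysed here. The full PP genotype is not reported here.

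Joined by gene identifier, the 8 tables hold 55335 genes, of which 55154 got a symbol and position from GENCODE M21 on GRCm38. Depth was estimated from genes of at least 1000 bases with 1 annotated transcript, where FPKM times length falls on whole multiples: 38.3 to 43.7% of the low values per library lay within 0.05 of a whole number. This is an estimate, and no counts were tested. Groups came from the labels. Tests covered the 14000 genes that reached 1 FPKM in 2 or more libraries. The values log2(FPKM + 1) entered limma 3.58.1 (R 4.3.3) with a mean for each of the 4 groups and eBayes with a trend, on 4 residual plus 2.4 prior degrees of freedom, two-sided, with Benjamini-Hochberg adjustment over all tested genes and calls under 0.05. Fold changes are on this scale and understate changes of low genes. The script was tested on simulated data. Python 3.11.15 with numpy 2.4.6, pandas 2.3.3 and matplotlib 3.10.9 made the tables and figures.

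The 37 genes, the other lists and the tests were chosen with earlier results of these data known. FPKM per library is given for up to 2 genes per role and comparison with the largest change among those that passed and for the gene with the highest mean, and for others by range. From each other list up to 4 genes with the smallest adjusted p between the genotypes after ADT are named, besides the E2F and Rb families. Rrm2b, Epcam and Cd24a were added after values were seen. Between groups, same-letter libraries had deviations from their group means that correlated at -0.008 to 0.057, and the letters do not pair the samples. Alternatives changed the pseudocount to 0.1, dropped the filter or raised it to a mean of 5 FPKM, scaled by median of ratios (factors 0.962 to 1.04) or by quantiles, added a replicate block, fitted the compared groups alone, dropped the trend, asked for a log2 fold change of 1 or more, or left out each library in turn.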

Additional observations from a re-analysis of the deposited data

Results flagged for a closer look

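For 20 of the tested replication genes the genotype difference, PPK against PP, was not the same in ADT mice as in sham mice by a test of the difference itself (limma, adjusted p under 0.05 over all 14000 tested genes). Each value is the log2 difference after ADT minus that in sham, on the scale of FPKM + 1. The difference was larger after ADT for 18. Among the helicase genes it was 0.96 for Mcm7, 0.82 for Mcm4, 0.81 for Mcm5, 0.59 for Mcm3 and 0.56 for Mcm2, and 0.62 for the helicase activator Cdc45. In strand synthesis it was 0.73 for Rfc4, 0.55 for Pcna, 0.53 for Pola1, 0.46 for Rfc5 and 0.45 for Fen1. Nucleotide supply had 2.26 for Rrm2, 1.20 for Rrm1 and 0.45 for Tyms, the chromatin genes 0.88 for Chaf1b, 0.76 for Uhrf1 and 0.54 for Chaf1a, and Ccne2 had 0.86. The difference was smaller after ADT for Lig1 (-0.59) and Pold1 (-0.54). Cdc45 and Ccne2 passed the filter only through the PPK ADT libraries. Without a filter the difference was larger for 15 and smaller for 2 of the 37 genes. Of 31172 genes without a filter 4449 had a more positive and 3234 a more negative difference. Over all tested genes 30.0% had a more positive and 22.8% a more negative difference.

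Some of these calls rest on single libraries. Pold1 did not pass without PP sham replicate A, PP ADT replicate A or PPK ADT replicate B (adjusted p = 0.0503 to 0.0541), nor Rfc4 without PPK ADT replicate B (adjusted p = 0.0548). Pola1 and Rfc5 did not pass without replicate B of PP sham, PPK sham or PP ADT, nor Pola1 without PPK ADT replicate A and Rfc5 without PPK ADT replicate B. Fen1 did not pass without PP sham replicate A, PPK sham replicate B, either PP ADT library or PPK ADT replicate A. Tyms did not pass without replicate B of PP sham, PPK sham or PPK ADT or either PP ADT library, nor Chaf1a without either PP sham library, PPK sham replicate B, either PP ADT library or PPK ADT replicate B, with adjusted p up to 0.104. With no filter Pola1, Tyms and Chaf1a did not pass, with quantile normalization neither Tyms nor Chaf1a, and with median-of-ratios scaling or the replicate block not Chaf1a. Groups of 2 libraries were not examined for a library that stands apart.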

How the results depend on the processing

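No gene reversed a called direction under any alternative run. With a mean of at least 5 FPKM, which leaves few of these genes to test, 2 replication genes were higher in PPK in sham and 4 after ADT. ADT with age then raised 1 in PP mice, where Rrm2 and Mcm7 still fell, and raised 5 and lowered 0 in PPK mice. The genotype difference was larger for 4 and smaller for 1. The mitotic list then had 1 higher after ADT, 1 lower in PP and 1 higher in PPK, and the other replication list 7, 1 and 5. Requiring also a log2 fold change of at least 1 left 0 higher in sham, 8 after ADT, 1 raised and 0 lowered in PP, 2 raised and 0 lowered in PPK, and 2 larger and 0 smaller differences. With no filter 1 rose in PP mice, and 10 mitotic genes fell there. Quantile normalization left 1 other replication gene lower in PP mice. The counts under the replicate block, 6 and 24 higher between genotypes in sham and after ADT, 2 raised and 2 lowered in PP, 22 and 1 in PPK and 17 and 2 for the difference, stayed within 1.5 times. The letters do not pair the samples, so these block values add nothing on animals.

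Leaving out 1 library at a time gave 4 to 8 replication genes higher in PPK in sham and 21 to 25 after ADT, 0 lower in both, 1 to 2 raised and 1 to 3 lowered by ADT with age in PP mice, 17 to 22 raised and 1 lowered in PPK mice, and 13 to 18 larger and 1 to 2 smaller differences. For the mitotic list, an alternative chosen after seeing the data as were those of the other replication list, it gave 21 to 22 higher after ADT, 9 to 18 lower in PP and 18 to 19 higher in PPK, and for the other replication list 18 to 22, 1 to 2 and 13 to 18. With 1 library left in a group, its spread was taken from the other groups. Scaling moved the median of all tested genes by under 0.1 in every comparison. Median-of-ratios scaling ended the calls of Orc6, Gins1 and Rfc5 after ADT, Mcm7 in PP and the difference for Chaf1a, and quantile normalization those of Gins1 and Rfc5 after ADT, Mcm7 in PP and the differences for Tyms and Chaf1a. Between the genotypes after ADT 22 and 23 replication genes were then higher. At the estimated depth, some genes near or under 1 FPKM rest on few fragments, such as Orc1 (7 to 25 per library). Others rest on more, such as Pole (86 to 268). A difference that did not pass is not shown to be absent.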
